A study of Mus musculus with 6 samples.

Results

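The Zscan4 genes of the mouse, Zscan4a to Zscan4f, and the Tcstv genes, Tcstv1 and Tcstv3, were followed through 6 RNA sequencing libraries of oocytes and early embryos labelled YAP-null or wild type. The 8 genes were taken by symbol, each symbol has 1 line in every deposited table, and they are 8 of 23308 symbols. All libraries came from females of ICR strain background, 21 to 23 days old and injected with PMSG and hCG, the hormones that make follicles grow and ovulate, and each library held 60 oocytes or embryos. Oocytes arrested before meiotic maturation, at the germinal vesicle (GV) stage, gave 2 libraries from YAP-/- females and 2 from wild-type females. Mated YAP-/- females gave 1 library of 4-cell embryos and mated wild-type females 1, and the YAP-/- samples of both stages are labelled Yap1-deleted. The labels conflict for these 2 libraries: their source field names a GV oocyte, while title, stage and tissue name 4-cell embryos, and the latter were used. The labels name no Cre, promoter or father's genotype, and nothing says that libraries of 1 group came from separate animals, so a p-value measures only the spread between these libraries, which may be technical. YAP is the transcriptional coactivator controlled by the Hippo pathway, and the title of the series asks about its part in switching on the early zygotic genome.

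ZSCAN4 proteins carry a SCAN domain, through which such proteins pair, and zinc fingers that bind DNA. Their genes are silent in most cells, are switched on in a short burst when the mouse embryo activates its genome at the 2-cell stage, and flicker on in rare embryonic stem cells, where ZSCAN4 is known for lengthening telomeres. Zscan4d is known as the main copy of the 2-cell embryo and Zscan4c as that of embryonic stem cells. The Tcstv genes are likewise transcribed at the 2-cell stage and have also been tied to telomere length in stem cells. The libraries lie on either side of that burst, 1 stage before fertilization and 1 after the next cleavage.

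The 6 Zscan4 genes form a cluster on chromosome 7, from 11379590 to 11987667 in mm9, with positions counted from 1. In the deposited tables this stretch of 608.1 kb holds no other gene, and the nearest genes on both sides, Vmn1r71 and Vmn1r72, which code for pheromone receptors, were listed at 0 in all 6 libraries. The copies are nearly the same sequence. Between their longest GENCODE M21 transcripts the identity ran from 96.6% (Zscan4b and Zscan4d) to 99.7% (Zscan4b and Zscan4e) over the 15 pairs. Of all 50-base stretches in a transcript, 52.1% of those of Zscan4d were in no other of the 6 transcripts, against 40.5% for Zscan4a, 24.1% for Zscan4c, 14.045% for Zscan4f, 13.8% for Zscan4b and 9.73% for Zscan4e. M21 also lists 3 further copies, Zscan4-ps1 to Zscan4-ps3, which have no line in the deposited tables. With them the share fell to 6.29% for Zscan4f and 14.5% for Zscan4c. Reads can therefore be split between copies in ways the tables do not show, and the sum of the 6 copies depends less on that split than any single copy does.

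RefSeq promoters of build GRCm38.p6 were found for 4 of the 8 genes, Zscan4b, Zscan4c, Zscan4d and Zscan4f. The 100 bases before each annotated start are given here because they show how far the copies share their control region. They are read 5′ to 3′ on the gene's strand, with the letters TATAAA of a TATA box in capitals. Zscan4b lies at chr7:10905051-10905150 (minus strand), Zscan4c at chr7:11005645-11005744 (plus strand), Zscan4d at chr7:11166149-11166248 (minus strand) and Zscan4f at chr7:11397815-11397914 (plus strand).
Zscan4b: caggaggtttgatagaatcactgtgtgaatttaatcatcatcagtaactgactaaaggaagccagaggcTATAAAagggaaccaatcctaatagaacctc
Zscan4c: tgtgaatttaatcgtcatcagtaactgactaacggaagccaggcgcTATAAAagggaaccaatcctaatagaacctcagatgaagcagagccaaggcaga
Zscan4d: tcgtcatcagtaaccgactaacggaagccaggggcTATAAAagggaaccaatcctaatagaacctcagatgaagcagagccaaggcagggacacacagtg
Zscan4f: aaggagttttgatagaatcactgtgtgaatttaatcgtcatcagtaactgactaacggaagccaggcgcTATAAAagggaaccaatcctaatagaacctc

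The stretch from the TATA box to AGAACCTC is the same in the 4 copies, although the annotated start lies 31 bases after the first T of the box in Zscan4b and Zscan4f, 54 in Zscan4c and 65 in Zscan4d. Over the full promoter windows of 300 bases, which reach past the start, the identity ran from 95.3% (Zscan4b and Zscan4c) to 99.3% (Zscan4c and Zscan4f). TATAAA, searched on both strands, was in all 4 windows and in 13.6% of the 32851 promoters of that length. GGAATG, the core bound by TEAD factors, the DNA-binding partners of YAP, was in none of the 4 windows and in 14.7% of all promoters. The motif of the 2-cell activator DUX was in none of the 4 and in 0.0335% of all, and TGCACAC, bound by ZSCAN4 itself, was in none of the 4 and in 4.4% of all. A missing match says only that these letters are not in the window.

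Expression is given in FPKM, the deposited fragments per kilobase of transcript, scaled to the mapped fragments of the library, with lower and upper bounds deposited beside each value. These bounds belong to 1 library each, and the headers name neither the errors they cover nor their confidence level. Whether they include error in assigning reads between copies is not known. FPKM is a share of a library, so a rise means a rise relative to the other transcripts of that library. Read totals are unknown. Relative depth, taken from the width of the bounds over 1884 genes and set to 1 in wild-type GV library 1, was 0.368 to 0.447 in the other 3 GV libraries, 0.808 for YAP-null embryos and 0.975 for wild-type embryos. Yap1, the label check, stood at 10.8 and 10.04 FPKM in YAP-null GV oocytes, against 248 and 154 FPKM in wild-type ones. At the 4-cell stage it stood at 33.3 FPKM under the YAP-null label, against 89.7 FPKM. The YAP-null 4-cell library thus still held Yap1 transcript. All 10 oocyte marker genes were above 0 in every GV library, Gdf9 at 1996 to 2875 FPKM. The 11 cleavage-embryo markers summed to 210 to 333 FPKM in GV oocytes and to 849.5 and 1013.8 FPKM in embryos (YAP-null first). Of them Klf5 and Tead4 were at 40.4 to 106 FPKM in both 4-cell libraries and at no more than 0.197 FPKM in any GV library. Not every marker separated the stages. Pou5f1 was at 161 to 298 FPKM in GV oocytes and at 322 and 207 FPKM in embryos. Sox2 was at 0.571 to 1.68 FPKM and at 1.36 and 0.968 FPKM, and Cdx2 at no more than 0.427 FPKM in any library. Of the markers of other ovarian, blood and stromal cells, Ptx3 and Acta2 were listed at 0 in all 6 libraries and Ptprc in 5 of the 6, but others were present. The 12 granulosa and cumulus markers summed to 29.3 to 36.2 FPKM in GV oocytes and to 64.6 and 76.4 FPKM at the 4-cell stage, where Amhr2 alone held 62.0 and 74.7 FPKM. In GV oocytes Inha was at 6.12 to 15.6, Cyp19a1 at 9.51 to 13.6 and Amh at 3.05 to 4.46 FPKM, and all 3 were under 1 FPKM in the embryos. The 8 blood and stroma markers summed to 12.8 to 26.1 FPKM in GV oocytes and to 41.0 and 54.2 FPKM in embryos, with Pecam1 at 12.8 to 25.7 FPKM in all libraries and Hba-a1 at 25.9 and 26.3 FPKM in embryos. The part of these markers in the results that follow was not tested.

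Tcstv1 and Tcstv3 were listed at 0 in all 6 libraries, and these zeros hold no measurement of the genes. Both are placed in mm9 on chrUn_random, a collection of sequence with no known place (Tcstv1 at 37344 to 38715, Tcstv3 at 3053 to 4452). None of the 30 table lines on chrUn_random and none of the 145 lines on the 11 contigs whose names end in _random was above 0 in any library, although 130 of those lines carried the status OK. On the placed chromosomes 55.5% to 63.5% of lines were above 0. The relatives AF067063 and BC147527, on the same collection, were listed at 0 as well, and 9 of the 11 other symbols sought for the Tcstv cluster were not found in the tables. No level, and no difference between stages or genotypes, can therefore be given for Tcstv1 and Tcstv3, and all results that follow are about the 6 Zscan4 genes.

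The first comparison asked how the Zscan4 genes differ between GV oocytes and 4-cell embryos. The copies were low in oocytes and higher in embryos of both labels. The sum of the 6 copies was 6.22 and 3.45 FPKM in the YAP-null GV libraries and 4.18 and 4.74 FPKM in the wild-type GV libraries, a mean of 4.65 ± 1.17 FPKM over the 4 (SD, n = 4). In embryos it was 58.3 FPKM under the YAP-null and 30.9 FPKM under the wild-type label. Both embryo libraries were above all 4 oocyte libraries. On the scale log2(FPKM + 1) the stage difference of the sum was 2.97 ± 0.38 (SE), and limma over all 6 libraries, with genotype as a term, gave it an adjusted p of 0.00128. Each label has 1 embryo library, so this SE and p hold no spread between replicate embryo libraries. For the sum alone, exact permutation gave a two-sided p of 0.133, taken as 2 times the smaller tail. By that rule it is the smallest that 4 against 2 libraries can give. In each library of whole embryos, more cells with the transcript and more transcript per cell cannot be told apart. With 1 stage sampled before the 2-cell burst and 1 after it, the tables do not show the level of the burst itself.

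Zscan4f, the copy with the highest level in both embryo libraries, was at 1.38 and 0.308 FPKM in YAP-null GV oocytes and 1.05 and 0.659 FPKM in wild-type ones. In embryos it was at 20.1 (YAP-null) and 9.62 FPKM (wild type). Its stage difference of 3.05 ± 0.40 (SE, log2) was the largest of the 6 at this pseudocount of 1 FPKM. With 0.1 FPKM, Zscan4a (4.94), Zscan4e (4.70) and Zscan4b (4.48) passed Zscan4f (4.04), so the order of the copies by stage difference depends on the pseudocount. Zscan4a was at 0.156 and 0.123 FPKM in YAP-null GV oocytes, 0 and 0.131 FPKM in wild-type ones, and 7.79 and 4.26 FPKM in the embryos, a difference of 2.63 ± 0.26.
Zscan4c, the copy best known from embryonic stem cells, was at 0.930 and 0.730 FPKM in YAP-null GV oocytes, 0.146 and 0.650 FPKM in wild-type ones, and 9.61 and 5.98 FPKM in the embryos, a difference of 2.44 ± 0.28. The 3 copies had in common that their lowest embryo value, 4.26 FPKM, was above their highest oocyte value, 1.38 FPKM.

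Zscan4b and Zscan4e, the pair with the highest identity, were listed at 0 in most oocyte libraries. Zscan4b was listed at 0 in 3 GV libraries and at 0.161 FPKM in YAP-null GV library 2, and at 4.17 and 1.79 FPKM in the embryos, a stage difference of 1.87 ± 0.26 (SE, log2). Zscan4e was listed at 0 in the same 3 libraries and at 0.162 FPKM in YAP-null GV library 2, and at 3.81 and 2.71 FPKM in the embryos, a difference of 2.03 ± 0.21. Zscan4d, the copy known as the main one at the 2-cell stage, stood apart in oocytes: its 3.76 and 1.97 FPKM in YAP-null and 2.99 and 3.30 FPKM in wild-type GV oocytes were higher than every other copy in each of the 4 libraries. In the embryos it was at 12.9 and 6.54 FPKM, so that its stage difference, 1.37 ± 0.39, was the smallest of the 6. With a pseudocount of 5 FPKM those of Zscan4b (0.65) and Zscan4e (0.71) were smaller than that of Zscan4d (0.85).

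**Figure D1:**
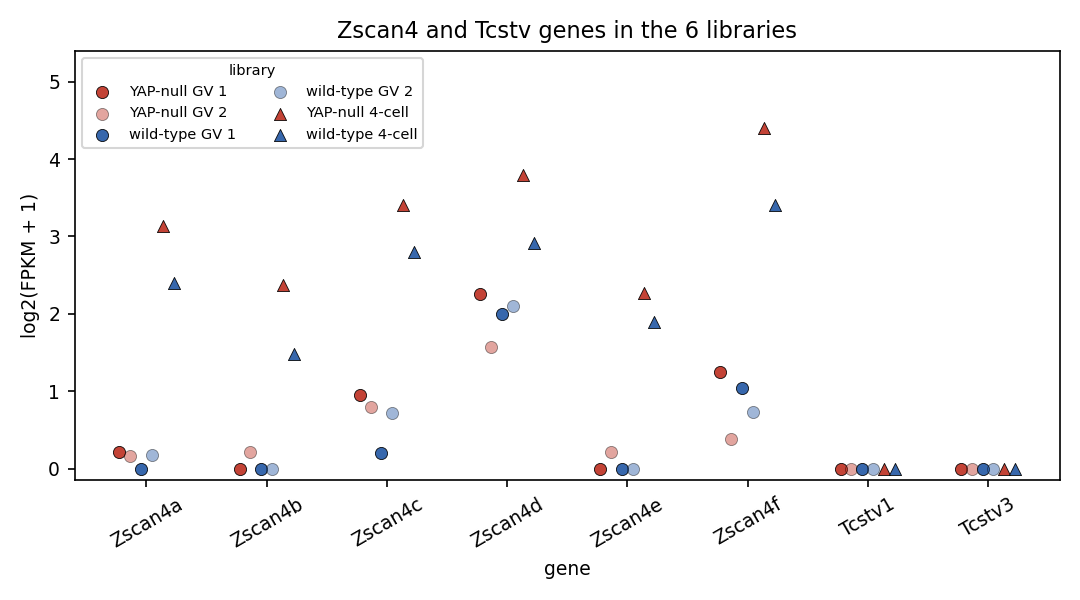
Each point is 1 library, with log2(FPKM + 1) on the y axis and the 8 genes on the x axis, circles for GV oocytes and triangles for 4-cell embryos, red for YAP-null and blue for wild type (paler for GV library 2). For every Zscan4 copy both triangles lie above all 4 circles, Zscan4d has the highest circles, at 1.97 to 3.76 FPKM, and both Tcstv genes are listed at 0 throughout.

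All 6 copies rose between the stages at an adjusted p of 0.05 in limma, with adjusted p from 0.000525 (Zscan4a) to 0.0241 (Zscan4d), beside 28.2% of the 11451 genes tested that were called higher and 27.8% called lower. In all 6 copies both embryo libraries were above all oocyte libraries, as in 35.1% of the genes tested. The median stage difference was 2.23 over the 6 copies and -0.10 over all genes tested. All 6 passed the filter of a mean of 1 FPKM over the libraries compared, but 5 of them did so only through the embryo libraries and so had to differ: Zscan4d alone had an oocyte mean of at least 1 FPKM. The copies also share reads, so their calls are not separate pieces of evidence. For Zscan4d the call ended without the filter on low values (adjusted p = 0.0804 in limma), without the YAP-null 4-cell library (0.198) and without the wild-type 4-cell library (0.0591). Stage and the preparation of the libraries cannot be told apart, since the labels give no dates.

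The low oocyte values of most copies rest on few fragments. The deposited lower bound was 0 in every GV library for Zscan4a, Zscan4b and Zscan4e. It was above 0 in all 4 GV libraries for Zscan4d, at 1.03 to 2.30 FPKM. The value of Zscan4c was 5.946 times that of Zscan4a in both YAP-null GV libraries and 4.955 times in wild-type GV library 2, multiples that stand to each other as 6 to 5. Zscan4d is the 1 copy with a lower bound above 0 in each GV library, and it is also the copy with the most sequence of its own.

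The make-up of the Zscan4 transcripts differed between the stages. Zscan4d gave 60.4% and 57.0% of the summed FPKM in YAP-null GV and 71.4% and 69.6% in wild-type GV oocytes, and 22.1% and 21.2% in the YAP-null and wild-type embryos. The share of Zscan4f was 8.94% to 25.1% in oocytes and 34.4% and 31.1% in embryos, and that of Zscan4a was 0% to 3.56% in oocytes and 13.4% and 13.8% in embryos. For 5 of the 6 copies the oocyte and embryo ranges did not overlap. The exact permutation test gave a two-sided p of 0.133 for each (0.160 after Benjamini-Hochberg adjustment over the 6 shares). By the rule used for the sum, this is the smallest possible here. The shares of a library add up to the whole, so a lower share of Zscan4d means a higher total of the others. The 5 are therefore not separate results. For Zscan4a, Zscan4b and Zscan4e the oocyte shares rest on values with a deposited lower bound of 0. Zscan4c, at 3.50% to 21.1% in oocytes and 16.5% and 19.4% in embryos, was the copy with overlapping ranges (p = 0.533, exact permutation test). Between the embryo libraries the shares differed most for Zscan4f. The part of read assignment between copies in these shares was not tested.

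**Figure D2:**
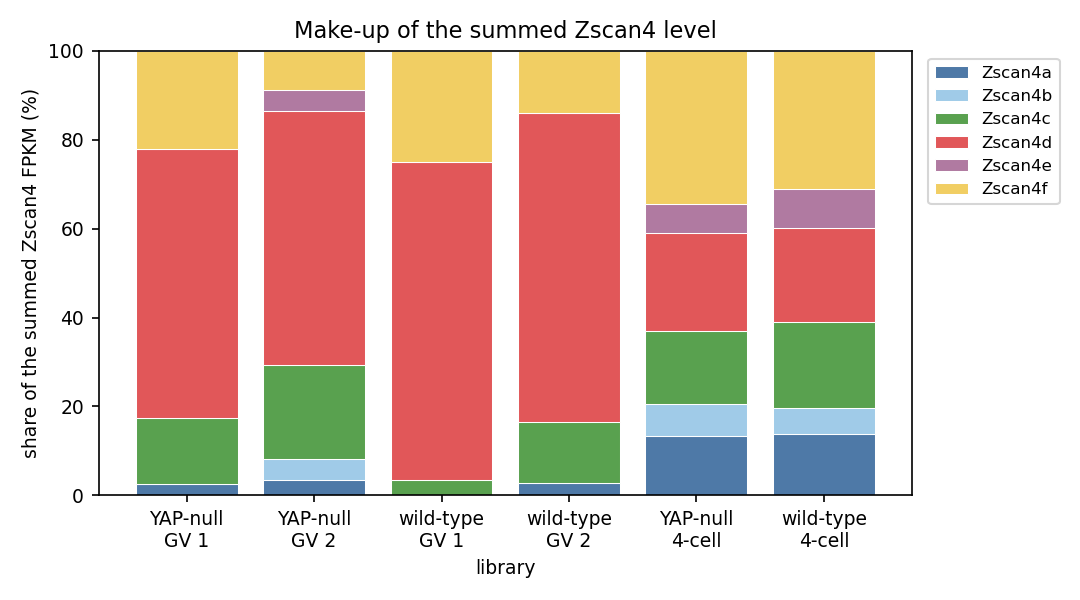
Each bar is 1 library and is divided by the percentage of the summed Zscan4 FPKM that each copy gave. The Zscan4d segment (red) takes 57.0% to 71.4% of the 4 oocyte bars and 21.2% to 22.1% of the 2 embryo bars, which have nearly the same make-up.

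The second comparison asked whether the labels differ in GV oocytes, before the embryo's genome is active. No difference in Zscan4 was detected there. The mean sum was 4.84 ± 1.96 FPKM with the YAP-null label and 4.46 ± 0.397 FPKM with the wild-type label (SD, n = 2 each), and the YAP-null values, 6.22 and 3.45 FPKM, lay on both sides of the wild-type values. The difference was 0.06 ± 0.42 (SE, log2), with an adjusted p of 1 in limma. Between the libraries numbered 1 it was 0.48 and between those numbered 2 it was -0.37, so the direction of the difference rests on the libraries chosen. Without YAP-null library 1, without wild-type library 1 or after rescaling all libraries to an equal sum the difference turned negative, to -0.29, -0.02 and -0.08.

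Zscan4d, the copy that passed the filter in GV oocytes, differed by -0.14 ± 0.41 (SE, log2; adjusted p = 1 in limma), and by 0.20 without YAP-null library 2. The groups overlapped for all copies but Zscan4c, whose YAP-null values, 0.930 and 0.730 FPKM, were above both wild-type values, 0.146 and 0.650 FPKM; groups were apart in this way for 10.8% of the genes tested. In a fit without the filter Zscan4c differed by 0.41 ± 0.24 (adjusted p = 1 in limma). Of 10462 genes tested between the GV groups limma called 0% (0 genes, and 22 at an unadjusted p under 0.05). Yap1, among those 22, differed by -4.10 ± 0.39 (SE, log2) and was not called, at an adjusted p of 1 in limma. With 2 libraries on each side, the smallest p that exact permutation allows is 0.333. The sum had an SE of 0.42 on the log2 scale, near the 0.39 of Yap1, which was not called at -4.10. A difference of the sum of that size could thus have gone uncalled as well.

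The third comparison set the YAP-null against the wild-type 4-cell library. All 6 Zscan4 copies had a higher value in the library labelled YAP-null. The sum was 58.3 and 30.9 FPKM, a ratio of 1.89 and a difference of 0.89 on the scale log2(FPKM + 1), or 0.26 to 1.51 with the deposited bounds of the 2 libraries at their extremes. No test was made, because 1 library for each label gives no spread between embryo samples. In the YAP-null library 1641 symbols had a higher FPKM than the Zscan4 sum, and in the wild-type library 2811.

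The ratio of YAP-null to wild-type FPKM was 2.33 for Zscan4b, 2.08 for Zscan4f, 1.97 for Zscan4d, 1.83 for Zscan4a, 1.61 for Zscan4c and 1.41 for Zscan4e. On the scale log2(FPKM + 1) the differences were 0.89, 0.99, 0.88, 0.74, 0.60 and 0.37 in the same order, so none reached 2-fold. By that rule 27.7% of 10854 genes lay 2-fold apart between the embryo libraries and 17.7% were 2-fold higher in the YAP-null library. Of all 10854 genes 52.2% had a difference above 0, that is, a higher value in the YAP-null library. With a pseudocount of 0.1 FPKM 2 copies reached 2-fold (Zscan4b and Zscan4f), and 3 did after rescaling to an equal sum (these and Zscan4d).

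The deposited bounds of the embryo libraries were apart for 5 of the 6 copies, with YAP-null higher, as they were in that direction for 36.1% of 9804 genes whose values lay inside their bounds in both libraries (64.4% in either direction). For Zscan4f they ran from 16.2 to 22.4 FPKM under the YAP-null and from 7.57 to 11.5 FPKM under the wild-type label. For Zscan4e, the exception, they overlapped, at 2.65 to 5.01 FPKM and 1.803 to 3.61 FPKM. The order of the copies was nearly the same under both labels: Zscan4f, Zscan4d, Zscan4c and Zscan4a from high to low, then Zscan4b before Zscan4e in the YAP-null and Zscan4e before Zscan4b in the wild-type library. Within the YAP-null library the bounds separated Zscan4f from Zscan4d and Zscan4a from Zscan4b, and the other neighbours in the order overlapped. Within the wild-type library all neighbours in the order overlapped.

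**Figure D3:**
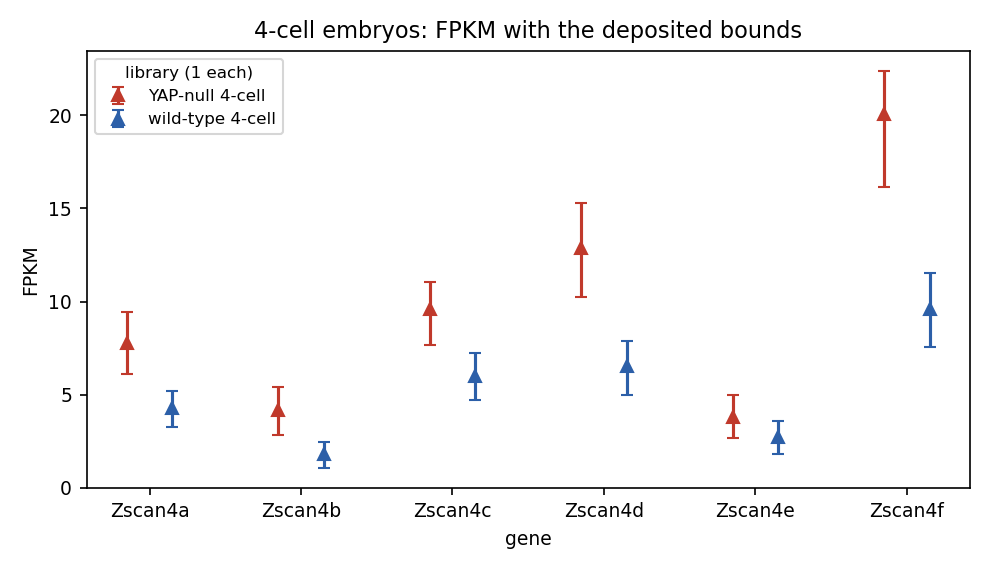
FPKM (y axis, from 0) of the 6 Zscan4 copies (x axis) in the YAP-null (red) and wild-type (blue) 4-cell library, 1 library each, with bars for the deposited lower and upper bounds. The red point is above the blue one for every copy, and the bars overlap for Zscan4e alone.

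Scaling moved the whole comparison of the embryo libraries. The median difference of all genes was 0.05 as deposited, -0.08 after quantile normalization, -0.14 after median-ratio scaling and 0.23 after rescaling to an equal sum. Relative to that median the Zscan4 sum was higher in the YAP-null library by 0.84, 0.74, 0.83 and 0.86 in the same order, and every copy kept a value above 0 under each of the 3 scalings. Among genes 2-fold apart, the share higher in the YAP-null library was 64.0% as deposited, 53.1% after quantile normalization, 50.2% after median-ratio scaling and 75.6% with rescaled sums.

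The embryo libraries also differed in genes that mark the 2 stages. All 10 oocyte markers were at least 2-fold higher in the YAP-null 4-cell library, beside 17.7% of all genes. They summed to 1058 FPKM there, against 165 FPKM in the wild-type library and 6559 to 10457 FPKM in oocytes. Gdf9, a growth factor gene of the oocyte, was at 220.2 and 19.9 FPKM. Of 10 cleavage-embryo markers compared, 5 were at least 2-fold lower and 1, the homeobox gene Obox3, was 2-fold higher in the YAP-null library. Of all genes 27.7% lay 2-fold apart in either direction. Klf5, a transcription factor gene of the early embryo, was at 48.6 and 106 FPKM. The part of these differences in the higher Zscan4 value was not tested. The stage difference of the Zscan4 sum within each label was 3.39 in YAP-null and 2.55 in wild type, a 12.1-fold and a 6.92-fold ratio of the embryo value to the oocyte mean, and whether the labels differ in it was not tested.

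The other genes known for a burst at the 2-cell stage gave the setting for these values. The list was chosen with earlier results of these data known. Of 30 symbols 26 were found and 25 were tested, of which 22 rose, 1 fell and 2 did not pass between the stages in limma, beside 28.2% of all genes called higher and 27.8% called lower. The count and the median difference, 3.09 against -0.10 over all genes, carry little weight, because 20 of the 25 had an oocyte mean under 1 FPKM, passed the filter only through the embryo libraries and so had to differ. Of the 5 others 3 rose. Tdpoz4 and Tdpoz5, BTB domain genes of the 2-cell embryo, were listed at 0 in all GV libraries and reached 89.4 and 97.8 FPKM in YAP-null embryos, against 126 and 102 FPKM in wild-type ones. Zscan5b, another SCAN zinc finger gene, rose by 6.34 ± 0.41 (SE, log2; adjusted p = 0.000167 in limma), from at most 1.63 FPKM to 194.4 and 138.1 FPKM. Sp110, a nuclear body gene, rose by 1.19 ± 0.40 from a high oocyte level (adjusted p = 0.0427), and Arg2, the mitochondrial arginase gene, fell by 3.84 (adjusted p = 0.00104). Gm12794 (0.61) and D5Ertd577e (-0.81) did not pass. Between the embryo libraries 4 of the 26 were 2-fold higher in YAP-null (Rfpl4b, Arg2, Usp17ld and Tmem92) and 3 were 2-fold lower (Usp17le, Ddit4l and Tdpoz2), with a median of 0.18. The share 2-fold higher was near the 17.7% of all genes, and the share 2-fold apart in either direction was near the 27.7% of all genes. Here and in the lists that follow, genes beyond the 5 most abundant are named because a small count fell on them, after their values were seen. The values for Zscan4, with a median of 0.81, thus stood on the higher side of a list that went both ways.

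Of 6 known activators of this programme found, 5 were tested, of which 3 rose, 1 fell and 1 did not pass, beside 28.2% of all genes called higher. Dppa2 and Dppa4, which code for chromatin proteins that switch on Dux, rose by 3.22 ± 0.43 and 4.67 ± 0.38 (SE, log2; adjusted p = 0.00141 and 0.000307 in limma). They reached 289 and 183 FPKM in YAP-null embryos, against 484 and 284 FPKM in wild-type ones. Tbx3, a T-box gene known to raise Zscan4 in stem cells, rose by 3.42 ± 0.49 (adjusted p = 0.00185), having passed the filter only through the embryo libraries. It was the 1 gene of this list 2-fold lower in YAP-null embryos, at 7.48 against 27.9 FPKM. Between the embryo libraries 27.7% of all genes lay 2-fold apart in either direction. Nelfa, a subunit gene of an elongation factor, was at 61.6 to 86.0 FPKM in all 6 libraries, and Gm4981 fell by 1.87 (adjusted p = 0.0273). Dux itself, named here for its role although it is not among the 5 most abundant, was at 0.276 FPKM in YAP-null GV library 2, listed at 0 in the other 3 GV libraries and at 1.53 and 2.22 FPKM in the YAP-null and wild-type embryos. The median of the list between the embryo libraries was -0.49, opposite in sign to that of Zscan4. The list was not uniform there: Dppa2, Dppa4, Tbx3 and Dux were lower in YAP-null, Nelfa differed by -0.03 and Gm4981 was higher by 0.97.

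Among 15 known repressors of the programme 4 rose, 1 fell and 10 did not pass between the stages in limma, with a median of 0.59. Both counts held no more of the list than the 28.2% of all genes called higher and the 27.8% called lower. Trim28, the corepressor gene of the zinc finger silencing system, rose by 1.11 ± 0.35 (SE, log2; adjusted p = 0.0356) and reached 181 FPKM in YAP-null embryos against 327 FPKM in wild-type ones. Ncl, the nucleolin gene, was at 104 and 248.6 FPKM there, 1 of 2 repressors 2-fold lower in the YAP-null library, with Ehmt2, a histone methyltransferase gene (-1.36). Of all genes 27.7% lay 2-fold apart in either direction. Ehmt2, Zfp42 and Zmym2 rose by 3.28, 2.48 and 1.09, and Setdb1, another histone methyltransferase gene, fell by 2.56. Zfp42 alone in this list had an oocyte mean under 1 FPKM and passed the filter only through the embryo libraries. The subunit genes Chaf1a, of the histone chaperone CAF-1, and Pcgf6, of a Polycomb complex, were at 57.5 and 55.7 FPKM and at 95.1 and 82.3 FPKM (YAP-null first). The median of the list between the embryo libraries was -0.38.

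Of 11 genes tested for partners of ZSCAN4 and for telomere proteins, 0 rose, 4 fell and 7 did not pass between the stages in limma, with a median of -0.78, beside 28.2% of all genes called higher and 27.8% called lower. Uhrf1 and Dnmt1 code for proteins that maintain DNA methylation and are known to be lost from cells when ZSCAN4 appears. That loss is of protein, while the values here are of RNA, and a link to Zscan4 was not tested. Uhrf1 fell by 4.20 on the log2 scale (adjusted p = 0.000305), and Dnmt1 fell by 3.85 (adjusted p = 0.0112). Acd, which codes for a protein of the telomere cap, fell by 2.37 (adjusted p = 0.00388), and Tert, the gene of the telomerase catalytic subunit, fell by 2.79. Tinf2, another cap gene, did not pass, at 0.27. In GV oocytes Dnmt1 was at 198 and 200 FPKM in the libraries numbered 1 and at 1041 and 1005 FPKM in those numbered 2, a split by number that the Zscan4 sum did not show. Between the embryo libraries Acd was 2-fold higher in YAP-null, at 33.1 and 15.3 FPKM, beside 17.7% of all genes. Dnmt1, at 38.4 and 23.9 FPKM, and Uhrf1, at 20.3 and 11.7 FPKM, were higher in YAP-null as well, by less than 2-fold.

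Of 15 other genes with a SCAN domain tested, 4 rose, 5 fell and 6 did not pass between the stages in limma, with a median of -0.80, shares near the 28.2% of all genes called higher and the 27.8% called lower. Of the zinc finger genes Zkscan6, Zkscan17 and Zkscan14, the first fell by 3.41 (adjusted p = 0.00066), the next fell by 2.63 (0.000771) and the last fell by 1.69 (0.0064), and Zscan21 did not pass at -0.27. Zscan20 and Zkscan5 fell as well, and Zscan25, Zscan26 and Zkscan1 rose by 2.39, 2.24 and 1.05. Of the 15 tested, Zscan26 alone had an oocyte mean under 1 FPKM and passed the filter only through the embryo libraries. Zscan5b, which is in this list and in that of the 2-cell stage, had the highest embryo level among them.

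**Figure D4:**
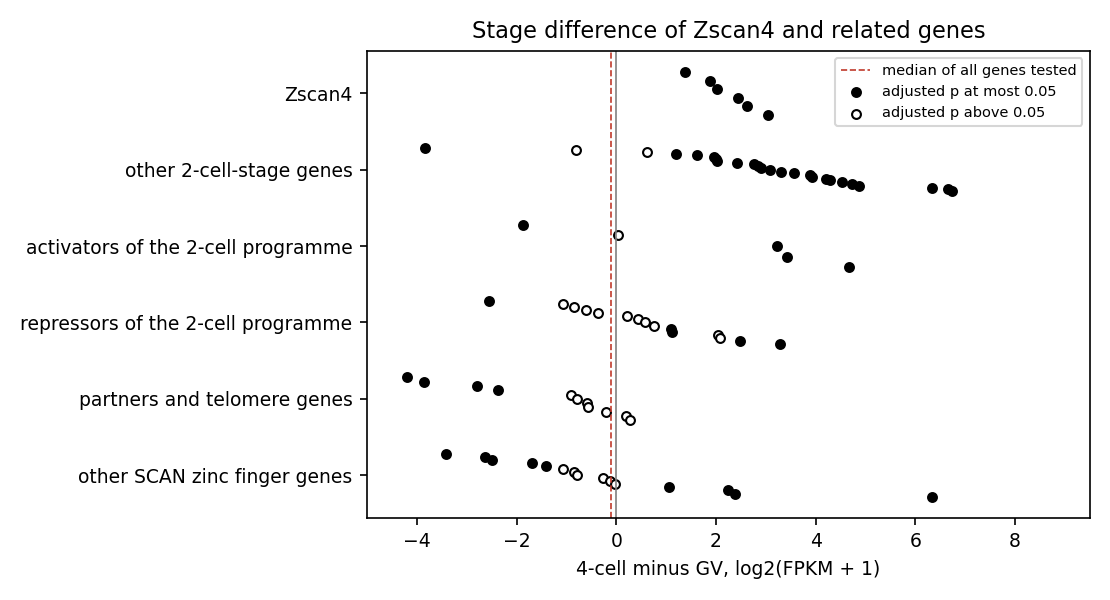
Each point is 1 gene tested, with its 4-cell minus GV difference in log2(FPKM + 1) on the x axis and its gene list on the y axis, filled where the adjusted p in limma was at most 0.05. The 6 Zscan4 points lie at 1.37 to 3.05, the median of all genes tested is the dashed line at -0.10, and the 2-cell-stage list reaches 6.74 (Tdpoz4).

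Profiles most like that of the Zscan4 sum were sought among 11445 other genes by the Euclidean distance between log2(FPKM + 1) values of the 6 libraries, each centred on its own mean. The nearest were Gm128 (0.339), Gm428 (0.370), Tmem92 (0.485), Prkcz (0.494) and Gabarap (0.518), against a median distance of 3.88. Gm428 was at 0.221 to 1.13 FPKM in GV oocytes and at 18.6 and 7.93 FPKM in YAP-null and wild-type embryos, and Tmem92 at 1.49 to 2.19 FPKM and at 28.2 and 13.1 FPKM. Prkcz codes for an atypical protein kinase C and Gabarap for an autophagy protein. In YAP-null and wild-type embryos Prkcz was at 11.5 and 9.10 FPKM and Gabarap at 88.3 and 66.4 FPKM. Both had a smaller gap on the log2 scale than the Zscan4 sum. Gabarap was at 4.81 to 9.55 FPKM in GV oocytes. Among the copies Zscan4f lay nearest to the sum (0.380) and Zscan4d farthest (1.85). With 6 points, these distances say only that a gene is higher in embryos than in oocytes by a like amount, whatever its level. The gap between the embryo libraries can still differ.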

How the data were processed

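mRNA of 4 GV oocyte and 2 embryo libraries was sequenced from both ends on an Illumina HiSeq, per the labels' protocols. CASAVA 1.8, TopHat and the genome mm9 are named per the submitters' processing notes. The quantifier and annotation were not given in the sources used here. Deposited by the authors was 1 gene table per library with FPKM values and their lower and upper bounds, per the file headers. From these, 1 line marked as failed was dropped and lines of 1 symbol were summed (260 symbols). Starts are counted from 0 in the tables and were raised by 1. Values were compared as log2(FPKM + 1), which understates the change of low genes, over symbols averaging 1 FPKM or more in the libraries compared. The test was limma-trend (limma 3.58.1 in R 4.3.3), two-sided. A call needed a p of 0.05 after Benjamini-Hochberg adjustment over all symbols tested. GV genotype was fitted on 4 libraries and stage on 6 with genotype as a term, both without a replicate block; the summed Zscan4 level was fitted in a table where it replaced its 6 copies. The 4-cell libraries were compared by a 2-fold size rule without a test. The fits were tested on simulated data with the same spread for every gene and no shared deviation of same-numbered libraries. That test does not show how the fits perform on these libraries. Transcript and promoter identities came from global alignments (Biopython 1.88) of GENCODE M21 transcripts and RefSeq promoters, both of GRCm38, whose coordinates were not mixed with those of mm9. The members, lists and naming rules (all members; the 5 most abundant of each list; the 5 nearest profiles; the neighbouring genes) were chosen with earlier results of these data known; some genes the rules name are not reported here. Alternatives were other pseudocounts, filters, scalings and row handling, the replicate block and leaving out each library.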

Additional observations from a re-analysis of the deposited data

How the results depend on the processing

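The stage difference of the Zscan4 sum passed under all 15 alternatives, at 2.31 to 3.39 on the log2 scale and 2.55 to 3.39 without 1 library (largest adjusted p 0.0309 in limma). Of 79 stage values of single copies, 76 passed, and the 3 that did not were of Zscan4d. Of the 79, 15 were of Zscan4d. The other copies, with 64 values, met the filter of 1 FPKM only through the embryo libraries and so had to differ. Settings in which a copy fell under the filter are not among the 79. Without 1 library, 2965 to 6332 genes were called between stages, against 6408; the lowest came without the wild-type and 4215 without the YAP-null 4-cell library, with fewer samples. The GV difference of the sum, never past the threshold, turned to -0.0757 after rescaling to an equal sum and ran from -0.2939 to 0.4044 without 1 library; that of Zscan4d ran from -0.4815 to 0.2007, the latter without YAP-null library 2. The cause was not tested. A group left with 1 library borrows its spread from the other groups in these fits. Between GV groups 0 genes were called, 2 with the replicate block, and 2, 3, 7 and 5 without YAP-null library 1 or 2 or wild-type library 1 or 2. The replicate block called 7989 genes between stages and changed no call of a Zscan4 copy or of the sum. Same-numbered GV libraries deviated together (r = 0.849 across 10462 genes, 2 pairs), but the labels give no meaning to the numbers. The count of genes 2-fold apart between 4-cell libraries fell from 3007 to 1275 with a pseudocount of 5 FPKM and to 1723 at a mean of 5 FPKM. All 46 values of single copies in that comparison stayed above 0, at 0.11 to 1.17. They come from the same 2 libraries, and a pseudocount, a filter or the row handling cannot change their sign. Only the scalings could have turned a value, so the count of 46 is not a measure of support. With a mean of 5 FPKM the sum and all copies left the GV comparison. Read totals are unknown, and 3 GV libraries are the shallowest by relative depth.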
